A study of Homo sapiens with 3 samples.

Results

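The genes described here are 58 genes of the extracellular matrix, the integrins that bind it and the proteases that cut it, chosen by name from 22430 genes that could be named on the array. They comprise collagens, laminin chains, matrix glycoproteins, lysyl oxidases, the plasminogen activator system, matrix metalloproteinases (MMPs) with their tissue inhibitors (TIMPs), and integrin chains. They were measured by 74 probes, of which 1 per gene was used, and 13 of the genes had several probes. RNA from the human renal carcinoma line TK-10 was hybridized to 3 single-colour arrays, 1 for each treatment, after 48 h with 0.1% DMSO (vehicle), with cordyceps at 750 μg/ml, or with sunitinib, a receptor tyrosine kinase inhibitor, at 10 μM. According to the labels, the medium of all cells held 10% fetal bovine serum, penicillin and streptomycin, 10 mM nicotinamide, 10 μM troglitazone (a PPARγ agonist) and 16.7 μM zinc sulfate. The methods of the study instead name cordycepin, an adenosine analogue from Cordyceps, at another concentration, describe a 2-colour array and mention no sunitinib. The files do not settle which agent was used, so the arrays are called by their labels.

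The extracellular matrix is a network of secreted proteins that epithelial cells and fibroblasts deposit and stand on. Collagen IV and laminins form the sheet of the basement membrane under renal tubules, while collagen I and fibronectin form the fibrils of stroma and scar. Integrins are pairs of an alpha and a beta chain that link these proteins to the cytoskeleton, and plasmin and the MMPs cleave the matrix during migration and remodelling.

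Each condition had 1 array and no replicate, so no test between conditions could be made, no p-value is given, and the number of arrays limits the precision. Values are relative signals, the intensity of a probe divided by the 75th percentile of all probes on its array (164.6 on the vehicle array, 137.9 on the cordyceps array and 78.2 on the sunitinib array). A relative signal is compared only between arrays, never between genes, because probes differ in brightness. Errors are the technical error (1 SD) that the scanner software gives for the signals, carried to the log2 ratio. They leave out differences between cultures, RNA preparations and hybridizations. Where a probe was printed in 10 spots, the errors of its spots were combined as if independent. The smaller errors of such probes (near 0.06, against a median near 0.20) therefore do not mean a better known difference between treatments. A gene was counted as higher or lower when it differed by more than 2-fold and its probe was well above background, by the criterion of the software, on either array of the pair. If the dimmer one failed this criterion, the ratio is a bound, written "at least". Less RNA from a gene in each cell and fewer cells that express it cannot be told apart in such bulk samples.

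All 9 measured markers of renal tubule epithelium were well above background on every array, among them PAX8, KRT18 and KRT19. Of 8 fibroblast markers, 5 were well above background on the vehicle array and 4 on each treated array, and their summed relative signal was 43.6, 13.9 and 12.8 on the vehicle, cordyceps and sunitinib arrays. PDGFRA, COL1A2 and COL3A1 were not well above background on any array, and COL1A1, itself a member gene, made up 32.2, 7.75 and 4.92 of these sums. DCN was lower on both treated arrays as well, at 4.30, 1.23 and 0.399, and so was LUM, at 2.33, 0.646 and 0.177 (the last not well above background). PDGFRB, by contrast, had 4.29, 3.77 and 6.80, and THY1 had 0.326, 0.195 (not well above background) and 0.313. The sums of 5 endothelial markers ran from 1.13 to 1.32, and those of 5 leukocyte markers from 2.54 to 4.70. The part of these lists in the results was not tested. A bright streak of 567 spots on the cordyceps array held 3 of the 74 probes, and 1 of these, that of TIMP3, was in use.

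**Figure D1:**
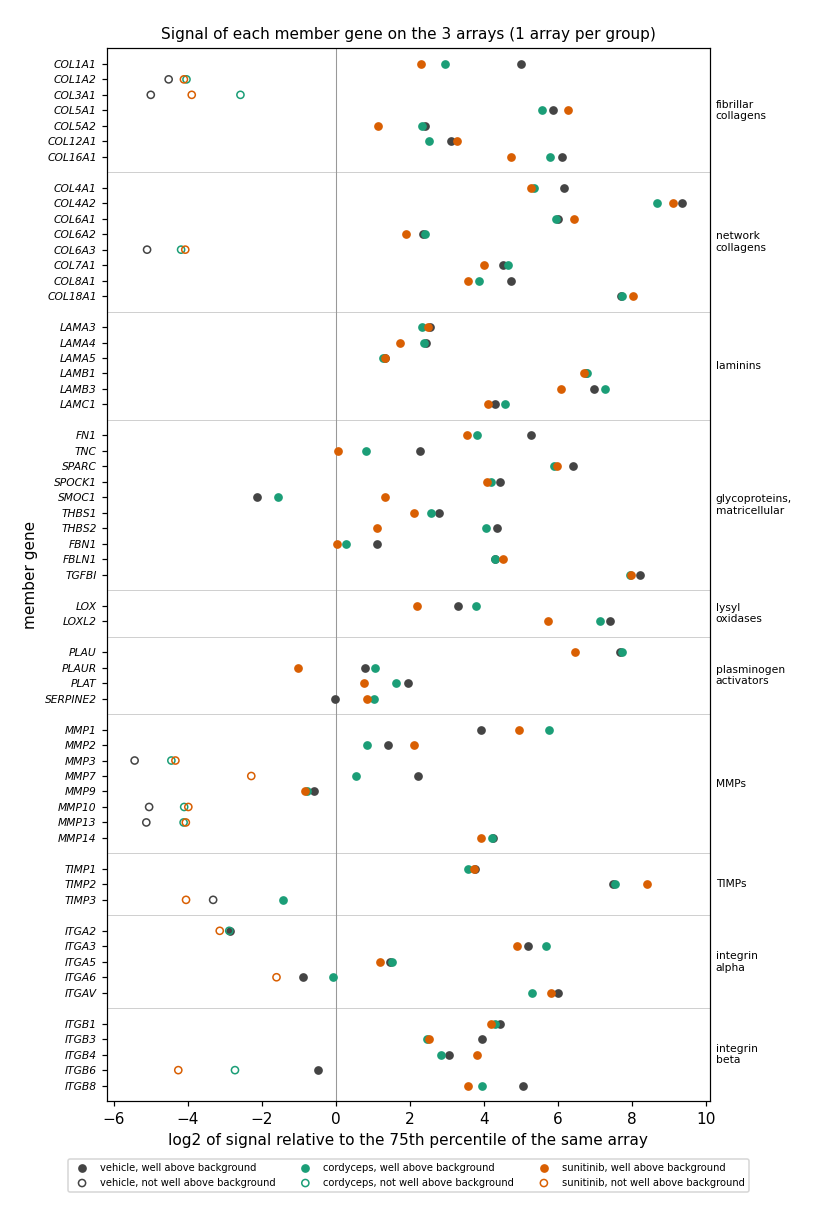
Relative signal of the 58 genes (rows, by role) on the vehicle, cordyceps and sunitinib arrays, on a log2 axis, with 1 point per array and open points for signals not well above background. Of these genes, 47 were well above background on all 3 arrays and 6 on none.

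In sunitinib-treated cells, COL1A1 of collagen I, fibronectin, tenascin C, thrombospondin 2, both lysyl oxidases and the urokinase system were lower than in vehicle-treated cells. Of 51 genes compared, 17 (33.3%) were more than 2-fold lower and 2 were higher. Among all 14894 genes compared, 6.49% were lower and 6.41% higher. The member genes were chosen with earlier results of these data known, so such shares describe the list and test nothing. The median log2 ratio was −0.37, against 0.00 for all genes, and 39 of the 51 ratios were below 0. The split of 2 higher and 17 lower genes became 1 and 22 with the arrays scaled to their medians, 1 and 39 with unscaled values, and 7 and 17 with no filter and no floor. The median became −0.70 with median scaling and −1.44 unscaled. All genes moved as well: 967 lower became 1926 with median scaling and 7989 unscaled, and their median became −0.31 and −1.05. With no filter and no floor, 6231 of all genes were higher and 1498 lower. In cordyceps-treated cells, a smaller set centred on COL1A1, fibronectin, tenascin C, MMP7 and integrin beta chains was lower. Of 52 genes compared, 7 (13.5%) were more than 2-fold lower and 3 were higher, against 2.74% lower and 2.93% higher among all 14773 genes compared. The median log2 ratio was −0.19, against 0.00 for all genes, and 34 of the 52 ratios were below 0. The split between 3 higher and 7 lower genes became 4 and 6 with the arrays scaled to their medians, and 2 and 10 with unscaled values. For all genes, 433 higher and 405 lower became 734 and 222 with median scaling, and 265 and 829 unscaled. Both comparisons rest on the same vehicle array, so an error of that array enters both.

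**Figure D2:**
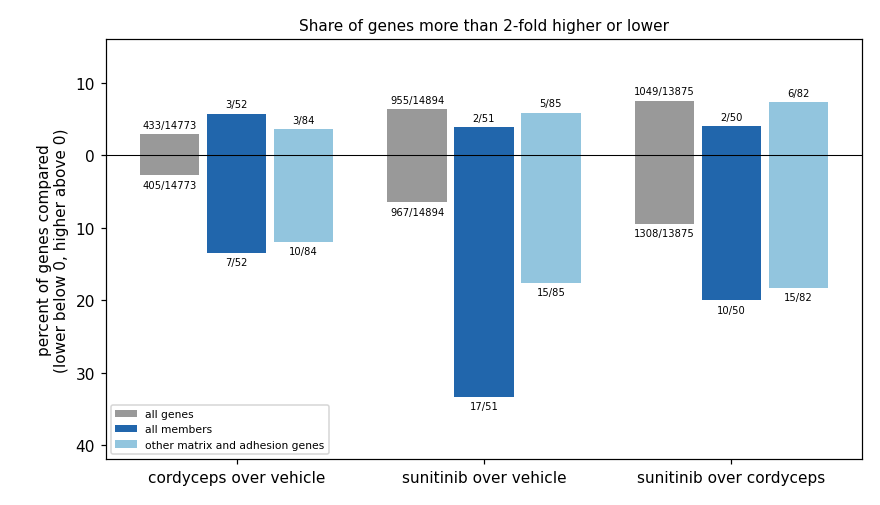
Percent of the genes compared that were more than 2-fold higher (above 0) or lower (below 0), for all genes, the 58 member genes and 98 other matrix and adhesion genes, with the counts printed at each bar. The bar of lower member genes is longest for sunitinib over vehicle, 17 of 51.

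Among the fibrillar and fibril-associated collagens, COL1A1, which encodes the alpha 1 chain of collagen I, was lower on both treated arrays. Its relative signal was 32.2 on the vehicle array, 7.75 on the cordyceps array and 4.92 on the sunitinib array. This was 4.16-fold lower with cordyceps (log2 ratio −2.06 ± 0.20) and 6.55-fold lower with sunitinib (−2.71 ± 0.20). COL1A2, its partner chain, and COL3A1 of collagen III did not pass the background criterion on any array. COL5A2, a chain of the fibril-initiating collagen V, had relative signals of 5.37, 5.04 and 2.19 in the same order. It was 2.45-fold lower with sunitinib (−1.29 ± 0.21) and close to vehicle with cordyceps (−0.09 ± 0.20). COL5A1, the other chain of that collagen, was within 2-fold on both, at 58.1, 47.6 and 77.7. COL16A1, a fibril-associated collagen, had 69.0, 55.1 and 26.8 and was 2.57-fold lower with sunitinib, but a second, dimmer probe gave a log2 ratio of only −0.21 there, and the mean of both probes was not past 2-fold. COL12A1 gave 8.58, 5.71 and 9.73.

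Collagens of the basement membrane and of other networks followed. None of the 7 that could be compared was past 2-fold with cordyceps, and 1 was with sunitinib. That one was COL8A1, a short-chain collagen, with relative signals of 26.7, 14.7 and 11.8, or 2.26-fold lower with sunitinib (−1.17 ± 0.20). COL4A1 and COL4A2, neighbouring genes that encode the chains of the most widespread collagen IV, had like ratios with cordyceps and unlike ones with sunitinib. COL4A1 had 72.1, 41.2 and 38.4, with log2 ratios of −0.81 ± 0.20 for cordyceps and −0.91 ± 0.20 for sunitinib. For COL4A2 the signals were 659.7, 409.1 and 556.7, with log2 ratios of −0.69 ± 0.20 and −0.25 ± 0.20. COL4A1 passed 2-fold with sunitinib under median scaling, normexp and unscaled values, and with cordyceps under quantile normalization and unscaled values. COL6A1, COL6A2, COL7A1 (the anchoring fibril collagen) and COL18A1 (the source of endostatin) had log2 ratios from −0.05 to 0.14 with cordyceps and from −0.51 to 0.45 with sunitinib, while COL6A3 failed the background criterion on all 3 arrays.

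The laminin chains, which assemble into the basement membrane trimers, were all within 2-fold on both treated arrays at the reported scaling, 6 of 6, with log2 ratios from −0.21 (LAMA3) to 0.32 (LAMB3) with cordyceps and from −0.89 (LAMB3) to 0.00 (LAMA5) with sunitinib. LAMB1 was almost level, at 107.9, 109.8 and 105.2. LAMB3, a chain of laminin 332, had 126.0, 156.8 and 68.0, and its sunitinib ratio (−0.89 ± 0.20) passed 2-fold with median scaling, normexp and unscaled values. Unscaled, all 6 laminin chains were more than 2-fold lower with sunitinib, but so were 7989 genes of the whole array. The median log2 ratio of all genes was then −1.05. LAMC1, the gamma chain shared by most laminins, had 19.7, 23.7 and 17.2. The 4 probes of LAMA4 gave log2 ratios of −0.70, −0.60, 0.48 and −1.49 with sunitinib, so its direction depends on the probe.

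Among 10 matrix glycoproteins and matricellular proteins, 2 were more than 2-fold lower with cordyceps, and 4 were lower and 1 higher with sunitinib. FN1, fibronectin, the main adhesive glycoprotein of stroma and plasma, had relative signals of 38.8, 14.1 and 11.8 on the vehicle, cordyceps and sunitinib arrays. It was 2.75-fold lower with cordyceps (−1.46 ± 0.20) and 3.30-fold lower with sunitinib (−1.72 ± 0.20). TNC, the anti-adhesive tenascin C, had 4.86, 1.76 and 1.05, or log2 ratios of −1.47 ± 0.21 and −2.21 ± 0.22. Both genes were thus lower on either treated array, by more than their technical error.

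THBS2, the anti-angiogenic thrombospondin 2, and SMOC1, a calcium-binding matricellular protein of basement membranes, stood apart on the sunitinib array alone. The signals of THBS2 were 20.4, 16.5 and 2.18. It was 9.35-fold lower with sunitinib (−3.23 ± 0.21) and within 2-fold with cordyceps (−0.30 ± 0.20). A second THBS2 probe gave −2.59 and −0.36. SMOC1 went the other way, at 0.230, 0.335 and 2.53, which was 11.02-fold higher with sunitinib (3.46 ± 0.28) and within 2-fold with cordyceps (0.55 ± 0.36). Its second probe was 1.99 higher on the log2 scale with sunitinib. The SMOC1 signals on the vehicle and cordyceps arrays lay near the lowest relative signals called well above background there, 0.111 and 0.219, and the log2 ratio for sunitinib was 2.06 with normexp background correction. FBN1, fibrillin 1 of the microfibrils, had 2.18, 1.21 and 1.03 and was 2.13-fold lower with sunitinib (−1.09 ± 0.22), but within 2-fold after normexp. TGFBI, an adhesive protein induced by TGF-β, had 301.3, 247.5 and 254.2. It and the other 4 of this group, SPARC, SPOCK1, THBS1 and FBLN1, had log2 ratios between −0.51 and −0.01 with cordyceps and between −0.68 and 0.23 with sunitinib.

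LOX and LOXL2 encode lysyl oxidases, the enzymes that cross-link collagen and elastin. Both were printed in 10 spots per array, so the spread between spots could be seen. LOX had a relative signal of 9.96, 13.7 and 4.61, and its spots ran from 9.50 to 10.6 on the vehicle array, from 13.2 to 14.5 on the cordyceps array and from 4.41 to 4.85 on the sunitinib array. The spots of an array share the same RNA, hybridization and scaling, so their spread says nothing about a difference between treatments. LOX was 2.16-fold lower with sunitinib (−1.11 ± 0.06), and its log2 ratio with cordyceps was 0.46 ± 0.06. LOXL2 had 172.2, 140.4 and 53.6, or 3.22-fold lower with sunitinib (−1.69 ± 0.06) and −0.30 ± 0.06 with cordyceps.

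The plasminogen activator system turns plasminogen into plasmin, which degrades fibrin and activates MMPs. PLAU, urokinase, had relative signals of 207.6, 214.9 and 88.6. It was 2.34-fold lower with sunitinib (−1.23 ± 0.20; second probe −1.96) and level with cordyceps (0.05 ± 0.20). PLAUR, the urokinase receptor, had 1.72, 2.07 and 0.488, or 3.53-fold lower with sunitinib (−1.82 ± 0.27) and 0.26 ± 0.21 with cordyceps. With normexp the PLAUR ratio for sunitinib was −1.04. PLAT, tissue plasminogen activator, had 3.85, 3.10 and 1.70, which was 2.27-fold lower with sunitinib (−1.18 ± 0.07). All 3 activator and receptor genes were therefore more than 2-fold lower with sunitinib and within 2-fold with cordyceps. SERPINE2, protease nexin 1, an inhibitor of urokinase and thrombin, went the other way. Its signals were 0.977, 2.04 and 1.78, with log2 ratios of 1.06 ± 0.21 with cordyceps and 0.87 ± 0.21 with sunitinib, and the first was no longer past 2-fold with normexp (0.71) or with unscaled values.

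**Figure D3:**
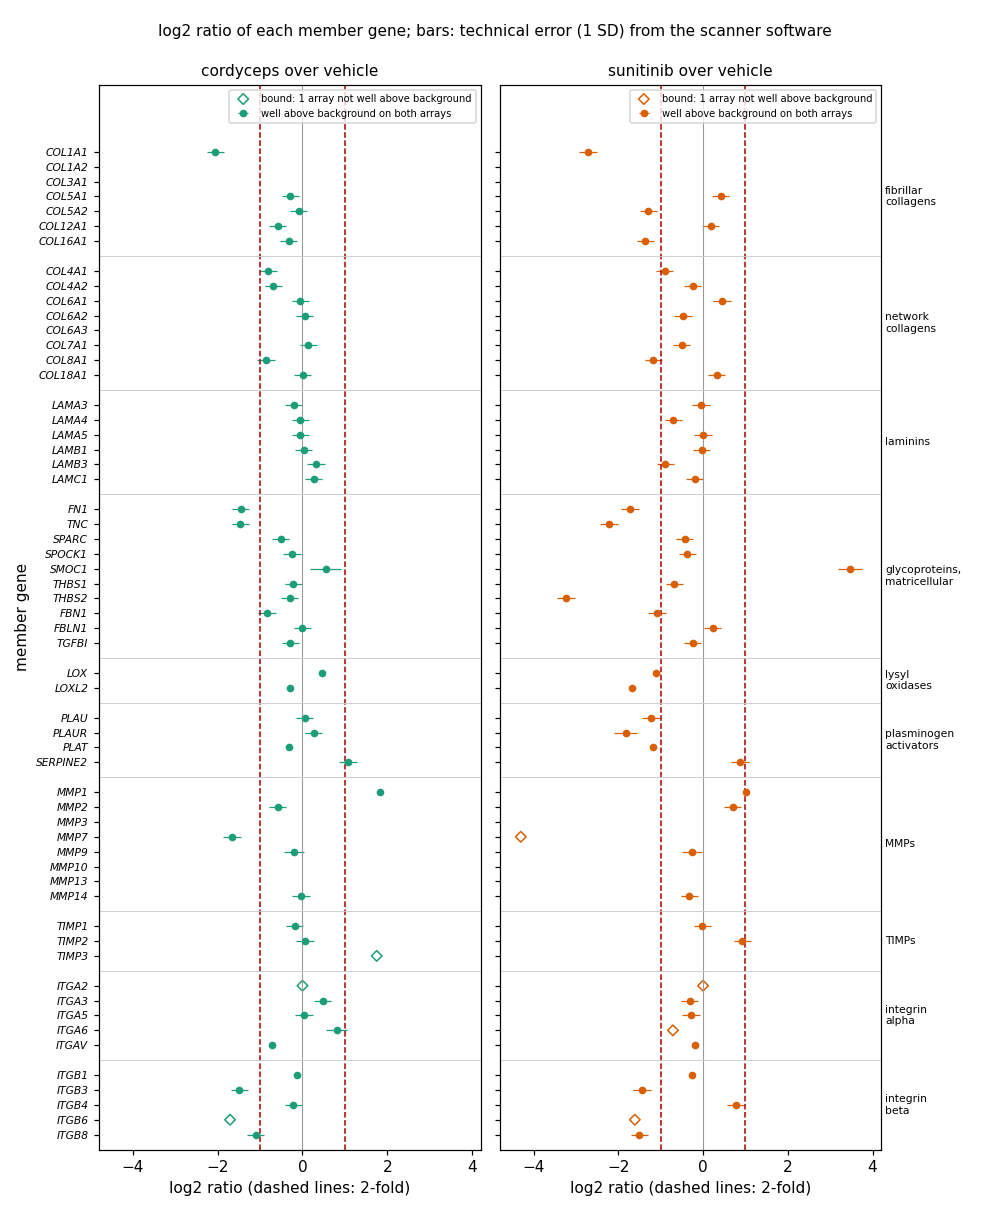
log2 ratio over vehicle of each member gene (rows, by role) with cordyceps (left) and sunitinib (right). Bars are the technical error (1 SD), open diamonds are bounds, dashed lines mark 2-fold, and genes without a point were not compared. The lysyl oxidases and PLAU, PLAUR and PLAT lie left of the 2-fold line with sunitinib only, and COL1A1, FN1, TNC, ITGB3 and ITGB8 lie left of it in both panels.

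Among the MMPs, MMP1 and MMP7, which lie in the same cluster of MMP genes on chromosome 11, went in opposite directions. MMP1, interstitial collagenase, had relative signals of 15.2, 54.5 and 30.8. Its 10 spots ran from 14.5 to 15.7 on the vehicle array and from 51.8 to 57.3 on the cordyceps array. On the sunitinib array they ran from 29.7 to 31.9. These ranges show the spread within an array only, not that between cultures or hybridizations. MMP1 was 3.57-fold higher with cordyceps (1.84 ± 0.06). The sunitinib ratio lay at the limit, 2.02-fold (1.01 ± 0.06), and it was within 2-fold with median scaling and with normexp and −0.059 with unscaled values.

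MMP7, matrilysin, a small MMP made by epithelial cells, had 4.62, 1.47 and 0.205, the last not well above background. It was 3.15-fold lower with cordyceps (−1.66 ± 0.21) and at least 19.7-fold lower with sunitinib, a log2 bound of −4.30 that became −2.62 with normexp. MMP2, gelatinase A, had 2.67, 1.78 and 4.33, or log2 ratios of −0.59 ± 0.21 and 0.70 ± 0.21. MMP9, gelatinase B, and MMP14, the membrane-anchored activator of MMP2, were within 2-fold on both, with log2 ratios from −0.33 to −0.03. MMP3, MMP10 and MMP13, of the same chromosome 11 cluster, stayed under the background criterion on all 3 arrays.

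TIMPs bind and block MMPs. TIMP1 was level on all arrays, at 13.5, 11.9 and 13.4. TIMP2, which also takes part in the activation of MMP2, had 180.3, 188.0 and 342.9, with a log2 ratio of 0.93 ± 0.20 for sunitinib, just within 2-fold. TIMP3, which stays bound to the matrix, was well above background on the cordyceps array only, at 0.372 against 0.100 and 0.0603. By that spot it was at least 3.37-fold higher with cordyceps, but the spot lay in the bright streak of that array, and with the streak left out TIMP3 had no value and 2 genes were higher. With normexp its bound was 0.53 on the log2 scale.

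None of 5 integrin alpha chains was counted as higher or lower on either treated array. ITGA2 gave only bounds, and the sunitinib ratio of ITGA6 was a bound. ITGAV, an alpha chain of RGD-binding integrins, was printed in 10 spots and had 64.2, 39.2 and 56.5, with log2 ratios of −0.71 ± 0.06 for cordyceps and −0.18 ± 0.06 for sunitinib. ITGA3, which pairs with beta 1 to bind laminins, had 36.9, 51.5 and 29.7, and ITGA5, of the fibronectin receptor, had 2.78, 2.86 and 2.28. ITGA6, of the laminin receptors, had 0.538, 0.939 and 0.329, the last not well above background. By this probe it was at least 1.64-fold lower with sunitinib. A second ITGA6 probe, well above background on the vehicle and sunitinib arrays, gave a log2 ratio of 0.003 there. The cordyceps ratio of the probe in use, 0.80 ± 0.24, passed 2-fold with median scaling and with the mean of the ITGA6 probes (1.24). ITGA2, of a collagen receptor, was well above background on the vehicle array only, at 0.138, so its ratios were bounds at 1 that allow any lower level.

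ITGB3, ITGB6 and ITGB8, beta chains that pair with ITGAV, were lower on both treated arrays, while ITGB1 and ITGB4 were within 2-fold. ITGB3 had relative signals of 15.6, 5.57 and 5.73, or 2.80-fold lower with cordyceps (−1.49 ± 0.20) and 2.72-fold lower with sunitinib (−1.44 ± 0.20). For ITGB8, whose product activates latent TGF-β, the signals were 33.5, 15.6 and 11.8, or −1.10 ± 0.20 and −1.51 ± 0.20. With median scaling, the cordyceps ratio of ITGB8 was within 2-fold (−0.88). ITGB6, which is restricted to epithelia, had 0.716 on the vehicle array and was not well above background on the treated arrays (0.151 and 0.0521), which made it at least 3.27-fold lower with cordyceps and at least 3.05-fold lower with sunitinib. After normexp neither bound of ITGB6 was past 2-fold. ITGB1, the partner of most alpha chains, had 21.9, 19.9 and 18.2. ITGB4, the hemidesmosome chain, had 8.34, 7.19 and 14.2, with a log2 ratio of 0.77 ± 0.20 for sunitinib.

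The treated arrays were also set against each other, which leaves the vehicle array out. Of 50 genes compared, 10 were more than 2-fold lower and 2 higher on the sunitinib array than on the cordyceps array, against 9.43% lower and 7.56% higher among all 13875 genes compared. The split became 1 higher and 21 lower with median scaling and 1 higher and 28 lower with unscaled values. For all genes, 1049 higher and 1308 lower became 300 and 3511 with median scaling, and 180 and 5329 unscaled. The lower genes were THBS2 (log2 ratio −2.92 ± 0.21), PLAUR (−2.08 ± 0.27), LOX (−1.58 ± 0.06), LOXL2 (−1.39 ± 0.06), PLAU (−1.28 ± 0.20), LAMB3 (−1.20 ± 0.20), COL5A2 (−1.20 ± 0.21) and COL16A1 (−1.04 ± 0.20), together with MMP7 (at least 6.26-fold) and ITGA6 (at least 2.86-fold). Higher genes were SMOC1 (2.92 ± 0.32) and MMP2 (1.28 ± 0.21). COL1A1, FN1, TNC, ITGB3 and ITGB8 were within 2-fold between the treated arrays, with log2 ratios of −0.66, −0.26, −0.74, 0.04 and −0.40, although COL1A1 and TNC passed it with median scaling and these and FN1 and ITGB8 unscaled. Between these arrays COL16A1 was at −0.49 with the mean of its probes, ITGA6 at −0.58 with normexp and MMP2 at 0.47 unscaled. COL16A1 was also within 2-fold with quantile normalization, and MMP2 with median scaling and with normexp. PLAUR was at −1.17 and MMP7 at −1.22 with normexp.

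Promoters are shown for 6 genes with large or shared differences, so that the sequence before their starts can be seen beside the ratios. The RefSeq table (GRCh38.p14) held promoters for 40 of the 58 genes. Each run gives the 250 bases before the gene start, 5′ to 3′ on the strand of the gene. Capitals mark 3 motifs searched on both strands, with overlaps allowed. An AP-1 site was spelled TGANTCA. For the TATA box the letters were TATAAA, and a GC box was any GGGCGG or its complement.
MMP7, chr11:102530748-102530997, minus strand: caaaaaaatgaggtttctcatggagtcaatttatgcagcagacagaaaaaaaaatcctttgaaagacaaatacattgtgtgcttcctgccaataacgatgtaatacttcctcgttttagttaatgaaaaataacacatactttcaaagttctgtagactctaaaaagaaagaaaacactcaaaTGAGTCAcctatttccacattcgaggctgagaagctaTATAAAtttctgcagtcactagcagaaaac
SMOC1, chr14:69879166-69879415, plus strand: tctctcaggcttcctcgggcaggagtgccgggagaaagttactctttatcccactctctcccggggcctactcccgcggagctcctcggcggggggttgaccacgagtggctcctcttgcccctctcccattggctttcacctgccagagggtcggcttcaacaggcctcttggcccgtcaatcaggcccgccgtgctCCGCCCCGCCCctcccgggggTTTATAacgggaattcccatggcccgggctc
THBS2, chr6:169253847-169254096, minus strand: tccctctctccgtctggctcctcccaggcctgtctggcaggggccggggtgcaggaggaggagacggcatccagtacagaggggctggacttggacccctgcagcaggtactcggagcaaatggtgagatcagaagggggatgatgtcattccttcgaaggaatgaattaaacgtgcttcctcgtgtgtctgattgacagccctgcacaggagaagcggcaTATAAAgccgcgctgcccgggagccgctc
TNC, chr9:115118158-115118407, minus strand: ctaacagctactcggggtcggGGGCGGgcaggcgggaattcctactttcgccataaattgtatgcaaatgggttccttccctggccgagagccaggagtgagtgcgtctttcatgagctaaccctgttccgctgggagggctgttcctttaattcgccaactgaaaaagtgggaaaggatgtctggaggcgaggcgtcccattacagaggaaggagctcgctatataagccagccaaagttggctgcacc
FN1, chr2:215436069-215436318, minus strand: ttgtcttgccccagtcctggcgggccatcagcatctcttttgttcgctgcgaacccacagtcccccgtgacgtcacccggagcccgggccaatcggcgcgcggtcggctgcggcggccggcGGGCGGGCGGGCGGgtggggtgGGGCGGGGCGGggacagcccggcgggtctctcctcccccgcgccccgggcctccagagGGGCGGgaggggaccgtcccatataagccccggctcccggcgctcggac
ITGB8, chr7:20330650-20330899, plus strand: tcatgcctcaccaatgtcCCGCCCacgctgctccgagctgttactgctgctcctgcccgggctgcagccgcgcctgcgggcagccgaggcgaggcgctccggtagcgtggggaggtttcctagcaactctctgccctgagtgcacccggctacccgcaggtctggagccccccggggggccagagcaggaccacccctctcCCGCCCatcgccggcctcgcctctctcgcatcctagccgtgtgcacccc

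MMP7, lower on both treated arrays, held the AP-1 letters at position −67 and the TATA letters at −30, counted from the gene start to the first base of the match. THBS2 and SMOC1 both held the TATA letters, although their sunitinib ratios ran in opposite directions. In THBS2 the letters lay at −29 on the strand of the gene, and in SMOC1 at −31 on the other strand, printed as TTTATA. FN1 held 6 overlapping or separate GC boxes, and neither FN1, TNC nor ITGB8 held the exact AP-1 or TATA letters in this window. The windows of TNC and FN1 do hold the similar run ATATAAG close to the gene start, which the search did not count. Among the 40 genes with a promoter, the AP-1 letters were found for 5 (LAMA3, LAMB3, MMP7, MMP10 and PLAUR), or 12.5%, against 8.06% of all 27305 genes in the table. TATA letters were found for 9 of the 40 (22.5%), against 13.05% of all genes, and GC boxes for 30 of the 40 (75%), against 46.2%. The median GC content of these windows was 64.5%, against 58% for all promoters. Its part in the GC box share was not tested. A match is a description of the letters and not a site in use, and nothing follows from the lack of one.

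Beyond the member genes, 98 other matrix and adhesion genes written down as a list were counted in the same way. With cordyceps, 10 of the 84 compared (11.9%) were more than 2-fold lower and 3 (3.57%) higher, with a median log2 ratio of −0.19. Among all genes compared, 2.74% were lower and 2.93% higher, so the higher share was near that of all genes. The 5 lowest were ADAMTS5, an aggrecanase (−2.04 ± 0.21), the small leucine-rich proteoglycans LUM (−1.85 ± 0.23) and DCN (−1.81 ± 0.22), the metalloproteinase ADAM12 (−1.54 ± 0.21) and the large proteoglycan VCAN (−1.26 ± 0.20). The 5 highest were TIMP4 (1.69 ± 0.28), the leukocyte integrin chain ITGB2 (1.19 ± 0.21), COL13A1 (1.07 ± 0.29), LAMA1 (0.78 ± 0.20) and the matricellular CCN1 (0.76 ± 0.20). The counts became 4 higher and 5 lower with median scaling, where the median was 0.0077, and 1 higher and 13 lower unscaled, and with normexp 0 were higher. All genes gave 734 higher and 222 lower with median scaling, 265 and 829 unscaled, and 188 higher with normexp.

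With sunitinib, 15 of 85 genes of that list (17.6%) were more than 2-fold lower and 5 (5.88%) higher, with a median of −0.15. Among all genes compared, 6.49% were lower and 6.41% higher, so the higher share was near that of all genes. DCN was the lowest of those well above background on both arrays (−3.43 ± 0.31, from 4.30 to 0.399), and LUM was at least 9.92-fold lower. ADAMTS1 (−3.03 ± 0.23) and ADAMTS9 (−2.57 ± 0.21), secreted proteases of proteoglycans, and the lysyl oxidase LOXL3 (−2.05 ± 0.21) were lower too. SERPINH1, the collagen chaperone (−1.30 ± 0.20), and P4HA2, a collagen prolyl hydroxylase (−1.03 ± 0.20), were lower as well. The 5 highest were BGN, biglycan (1.59 ± 0.24), ITGA11, a collagen-binding integrin chain (1.54 ± 0.20), ELN, elastin (1.48 ± 0.22), MMP11 (1.30 ± 0.21) and SPOCK2 (0.91 ± 0.20). The counts moved to 3 higher and 27 lower with median scaling, and to 0 higher and 57 lower with unscaled values. All genes gave 517 higher and 1926 lower with median scaling, and 156 and 7989 unscaled.

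**Figure D4:**
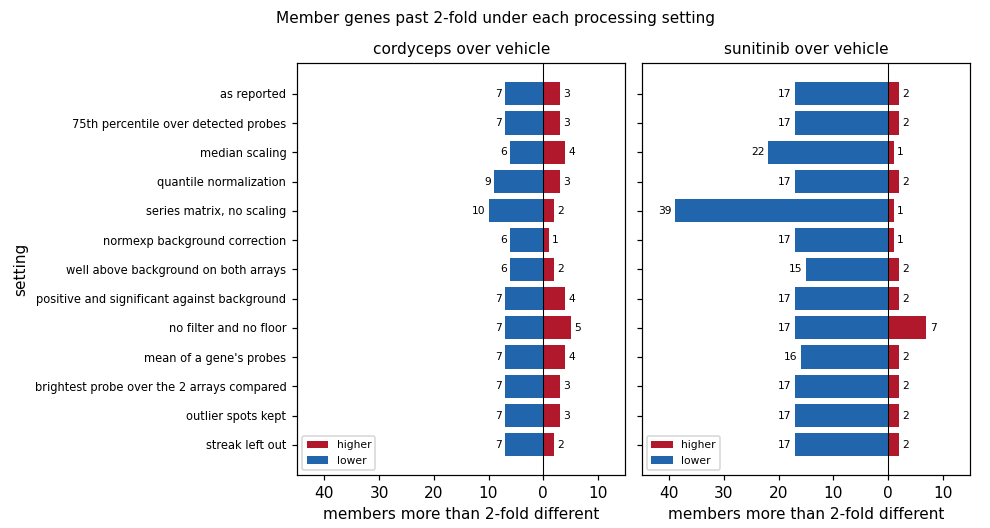
Number of member genes more than 2-fold higher (right of 0) and lower (left of 0) than vehicle under the reported setting and 12 alternatives. The sunitinib count of lower genes runs from 15 to 39 and the cordyceps count from 6 to 10.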

How the data were processed

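The authors deposited the output of Agilent Feature Extraction 11.5.1.1 for each of 3 single-colour (Cy3) arrays with 62976 spots, as intensity on a linear scale. The processed intensity is corrected for background and spatial trend and is not scaled between arrays, and the array grid is annotated to hg19. A table of processed values was also deposited, which matched the per-probe averages of these intensities to within 0.01% for 99.9% of probes.

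Control spots and spots marked as outliers (63 to 121 per array) were left out, repeated spots were averaged, and log2 of the intensity less that of the 75th percentile was taken. No spot was saturated. Probes were named by accession through a RefSeq table (GRCh38.p14, 31104 of 58201 probes). The probe with the highest mean over the 3 arrays stood for its gene. Where an array was not well above background, the lowest signal called well above background there, or the probe's own if higher, was used as a bound. Ratios bounded at 1 count as 0 in medians.

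Named genes are all members, by role, with full values for those past 2-fold and the brightest of each role, and the 5 highest and 5 lowest of the other matrix list, with SERPINH1, P4HA2 and, for sunitinib, LUM added after their values were seen, and 1 gene of that list is not reported here. The members and lists were chosen with earlier results of these data known. The 12 alternatives changed the scaling (median, quantile, detected probes, or the deposited table without scaling, called unscaled), the background (normexp on the median spot signal), the filter on dim probes, the choice of probe, the outlier spots or the streak. The direct ratio of the treated arrays was added after seeing the data. Ratios were computed in Python 3.11.15 with pandas 2.3.3 and normexp in R 4.3.3 with limma 3.58.1, after the steps were tested on simulated data.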

Additional observations from a re-analysis of the deposited data

How the results depend on the processing

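Against 12 alternatives, 5 of the 7 genes lower with cordyceps and 14 of the 17 lower with sunitinib stayed past 2-fold under every alternative that gave a value, as did MMP1 with cordyceps and SMOC1 with sunitinib. Median scaling moved the median log2 ratio of all genes to 0.18 for cordyceps and −0.31 for sunitinib over vehicle, and to −0.54 for sunitinib over cordyceps, and unscaled values moved it to −0.24, −1.05 and −0.80. The medians of the member genes moved with it, to 0.015, −0.70 and −0.83 with median scaling and to −0.45, −1.44 and −1.09 unscaled. With normexp the sunitinib median was −0.64.

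With cordyceps, 3 higher member genes became 1 with normexp and 5 with no filter and no floor. With sunitinib over vehicle, 2 higher genes became 1 with median scaling, unscaled values or normexp, and 7 with no filter and no floor, while the 17 lower genes became 39 unscaled. In sunitinib over cordyceps, 2 higher genes became 1 with median scaling, unscaled values or normexp, and 10 lower genes became 21 with median scaling and 28 unscaled. The sunitinib ratio of MMP1 turned to −0.059 unscaled. The cause was not tested, beyond what each scaling does by construction.

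For all genes with sunitinib, 955 higher and 967 lower became 517 and 1926 with median scaling, 156 and 7989 unscaled, and 6231 and 1498 with no filter and no floor, while normexp left 319 higher. With cordyceps, 433 higher and 405 lower became 734 and 222 with median scaling, 265 and 829 unscaled, 1615 and 965 with no filter and no floor, and 188 and 186 with normexp. Calling probes by the positive-and-significant criterion of the software gave 2356 and 1498 with sunitinib and 922 and 965 with cordyceps, and the mean of the probes of a gene gave 642 lower with cordyceps. Signal over background limits COL1A2, COL3A1, COL6A3, MMP3, MMP10 and MMP13, for which no ratio could be had. No paired analysis was possible because each group has 1 array, and no array could be left out.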

Other observations

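Several probes of 1 gene did not always give the same picture. ITGA6 had a log2 ratio of 0.80 with cordyceps by the probe in use and of 1.68 by a second probe, but the spot of the second lay in the bright streak of the cordyceps array. The second probe of COL5A1 lay in the streak as well and had a log2 ratio of 0.02 with cordyceps, against −0.29 for the probe in use. Of the 2 LAMA3 probes, the one in use gave −0.05 with sunitinib, and the other was not well above background there and gave −0.93 as a bound. For COL12A1 the sign with sunitinib differed, at 0.18 and −0.15. The FBLN1 probes, 3 in all, gave 0.23, 0.40 and 0.18.

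PTPRC, a leukocyte marker, had a relative signal of 0.112 with vehicle, 0.0896 with cordyceps (not well above background) and 0.585 with sunitinib, a log2 ratio of 2.39 for sunitinib. CD14, the brightest of the leukocyte list, ran the other way, at 4.21, 2.71 and 1.48, with log2 ratios of −0.64 and −1.50. CDH6 and CDH16, cadherins of renal tubules, had log2 ratios of −2.38 and −2.24 with cordyceps and of 0.04 and −0.49 with sunitinib, while EPCAM had 0.12 and −0.18.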
